A study of Mus musculus with 12 samples.

Results

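The transcription factor p53 (Trp53) and 30 genes known as its transcriptional targets were followed through mouse embryonic fibroblasts (MEFs) and day 4 of their reprogramming, with and without AF10 and DOT1L activity. The 31 genes are named in a list taken from general knowledge of the pathway, and each was found by its symbol among the 20325 genes of the deposited tables. All 31 passed the filter on low counts that left 13936 genes for testing. The MEFs under study carried AF10 fl/fl (or, after Cre, AF10 -/-), an inducible OSKM cassette of the reprogramming factors Pou5f1, Sox2, Klf4 and Myc, and rtTA. AF10, the product of Mllt10, is a partner of the histone methyltransferase DOT1L. MEF_fl cells received Ad5-CMV-Empty, an adenovirus without Cre, and MEF_creAF10 cells received Ad5-CMV-Cre, in which the CMV promoter drives Cre in any cell that is infected. Reprogramming began 2 days after transduction with 2 µg/mL doxycycline, in DMSO (Day4_fl_DMSO and Day4_creAF10_DMSO) or in 5 µM SGC0946, an inhibitor of DOT1L (Day4_fl_SGC and Day4_creAF10_SGC). Each of the 6 groups had 2 libraries. MEFs grew in MEF medium, whereas the day 4 cells grew in embryonic stem cell medium with LIF on gelatin with DR4 feeder MEFs, so doxycycline, medium and feeders all differ between the stages and cannot be told apart. The labels do not say whether feeders were removed before the day 4 RNA was taken, so feeder RNA may be in those libraries. No cells without floxed alleles received Cre, so AF10 deletion and exposure to the Cre virus cannot be told apart either.

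In normal cells p53 protein is kept low because MDM2, itself a p53 target, marks it for degradation. DNA damage, oncogene activity or ribosome stress frees p53 from MDM2, and p53 then switches on genes for cell cycle arrest, apoptosis, DNA repair and metabolic restraint. The pathway is known as a barrier to reprogramming, and cells without p53 form induced pluripotent colonies more often. Most p53 activity is set on the protein, by stability and modification, which RNA levels do not measure.

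Promoter windows of the members, from 250 bases before to 50 after an annotated start, were searched on both strands for the p53 half-site consensus, a 10-base palindromic motif that p53 binds in pairs. RefSeq windows (GRCm38.p6) were at hand for 23 of the 31 members, and 11 of these, 47.8%, held a half-site in at least 1 window, against 9.55% of 27025 genes with a window. The list was drawn up from known targets, and a match is a string of letters, not evidence of binding. Only exact matches were counted, so a window without a match can still hold a site that departs from the consensus. A pair of half-sites at most 13 bases apart, the arrangement of a full response element, was in 0 of the members' windows and in 0.0731% of all windows. The half-site of 4 members that were higher on day 4 is shown in capitals below, at position -186 from the start for Mdm2, -40 for Gadd45a, -201 for Bax and -10 for Ei24. Trp53, Ppm1d and Rps27l, also higher on day 4, held a half-site too. So did Ccng1, Sesn1, Aen and Polk, which had no call between the stages in the first fit described below. Bbc3, Fas and Eda2r were higher on day 4 in fl cells and held none. A link between half-site and change was not tested. The window of Dram1, the member with the largest difference under SGC0946, is shown because it held no match. All windows are on the minus strand, at chr10:117710709-117711008 (Mdm2), chr6:67037358-67037657 (Gadd45a), chr7:45466849-45467148 (Bax), chr9:36797285-36797584 (Ei24) and chr10:88357026-88357325 (Dram1). The best known p53 sites of Mdm2 and Gadd45a lie in introns, outside these windows.
Mdm2: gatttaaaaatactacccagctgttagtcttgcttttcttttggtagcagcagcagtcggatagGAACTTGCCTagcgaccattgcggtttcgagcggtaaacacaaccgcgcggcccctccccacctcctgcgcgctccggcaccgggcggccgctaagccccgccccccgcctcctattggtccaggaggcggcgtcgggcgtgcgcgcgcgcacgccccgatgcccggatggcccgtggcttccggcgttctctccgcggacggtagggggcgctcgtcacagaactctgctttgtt
Gadd45a: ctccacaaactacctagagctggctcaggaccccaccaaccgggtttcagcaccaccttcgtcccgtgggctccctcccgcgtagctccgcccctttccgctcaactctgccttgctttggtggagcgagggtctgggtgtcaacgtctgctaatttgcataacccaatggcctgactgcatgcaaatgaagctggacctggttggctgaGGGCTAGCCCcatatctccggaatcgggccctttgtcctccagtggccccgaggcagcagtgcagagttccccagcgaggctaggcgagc
Bax: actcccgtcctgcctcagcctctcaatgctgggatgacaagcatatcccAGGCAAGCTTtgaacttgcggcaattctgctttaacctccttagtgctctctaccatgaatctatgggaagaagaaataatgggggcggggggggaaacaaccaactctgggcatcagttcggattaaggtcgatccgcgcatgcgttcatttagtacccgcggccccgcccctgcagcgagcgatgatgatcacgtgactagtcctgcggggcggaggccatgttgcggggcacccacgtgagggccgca
Ei24: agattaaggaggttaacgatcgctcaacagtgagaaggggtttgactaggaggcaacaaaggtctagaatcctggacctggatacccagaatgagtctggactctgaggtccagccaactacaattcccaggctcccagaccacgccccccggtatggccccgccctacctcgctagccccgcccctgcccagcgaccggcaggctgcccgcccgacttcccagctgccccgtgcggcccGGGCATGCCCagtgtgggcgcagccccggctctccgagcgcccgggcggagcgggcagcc
Dram1: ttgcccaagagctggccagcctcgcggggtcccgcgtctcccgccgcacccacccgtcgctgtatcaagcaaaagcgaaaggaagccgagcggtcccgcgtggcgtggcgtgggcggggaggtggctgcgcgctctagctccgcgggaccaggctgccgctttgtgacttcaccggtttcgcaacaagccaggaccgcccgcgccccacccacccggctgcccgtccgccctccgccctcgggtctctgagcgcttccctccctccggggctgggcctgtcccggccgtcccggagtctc

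The 12 libraries held 14602536 to 22800753 expected counts each, and the lowest count of any member was 94. Levels are given as CPM, counts scaled by the TMM library size, for comparison of libraries, and as TPM, which takes account of transcript length, for comparison of genes. Mllt10 reads were at 43.1 and 45.4 CPM in MEF_fl and 35.4 and 34.5 in MEF_creAF10, and at 54.1 to 61.4 in fl and 40.5 to 44.2 in AF10-deleted cells on day 4. The counts were lower in each AF10-deleted library but far from 0, and they do not measure the loss of protein. The summed level of 10 fibroblast genes was 48640 to 66230 CPM in MEFs and 20430 to 22150 on day 4, with none at 0. Collagens and Fn1 made up most of it, while Vim, of the same list, went from 4347 to 5327 CPM in MEFs to 7550 to 8686 on day 4. Of the other marker lists, proliferation genes moved from 524.5 to 601.4 CPM in MEFs to 1090 to 1228 on day 4, and macrophage and blood genes from 5.30 to 12.8 to 49.4 to 73.3, the latter mostly Laptm5 with Ptprc at 0.504 or less. Endothelial genes went from 18.9 to 21.7 CPM to 81.8 to 123.3, nearly all of it Tek, while Kdr went from 2.91 to 4.92 CPM to 0.279 to 0.987 and Pecam1, Cdh5 and Emcn were at 0.818 CPM or less in every library. Epithelial genes went from 2.61 to 5.22 CPM to 23.1 to 88.8, most of the day 4 sum being Cdh1 at 17.97 to 68.25. In Day4_fl_DMSO Krt8, at 1.38 and 2.29 CPM, and Krt18, at 0.575 and 0.779, lay within their ranges in MEFs. Epcam and Cldn3 lay above theirs in that group. In bulk RNA, fewer cells of a type and less RNA per cell cannot be told apart, and the part of these shifts in the results below was not tested.

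Tests came from edgeR's quasi-likelihood method with Benjamini-Hochberg adjustment over the 13936 genes, and a gene was called at an adjusted p under 0.05. In the first fit each library stood for its group alone. Replicate 1 and replicate 2 libraries come from different cell sources in every group, so a paired fit, with a term for the source within MEFs and within day 4, is given beside it for counts and for the members it called. These terms are separate, so from MEFs to day 4 the paired p-values do not measure how alike the change was in both sources. "Rose" and "fell" are used only for calls, and the fit is named where the first one made no call.

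The members spanned a wide range of transcript levels and most were well expressed before reprogramming. In MEF_fl the highest were Rps27l, a paralogue of a ribosomal protein, at 653 TPM, Ccng1 (cyclin G1) at 395, Phlda3, which restrains AKT, at 350 and Bax, the pore-forming effector of mitochondrial apoptosis, at 290. The same genes led in Day4_fl_DMSO, at 864, 395, 354 and 369 TPM. The lowest in MEF_fl were the kinase gene Plk3 at 7.14 TPM, Pmaip1, which encodes the apoptosis trigger NOXA, at 8.34, and Rrm2b, the p53-inducible ribonucleotide reductase subunit, at 8.55. Reads of Rps27l can be shared with the near-identical Rps27, so its level is uncertain.

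**Figure D1:**
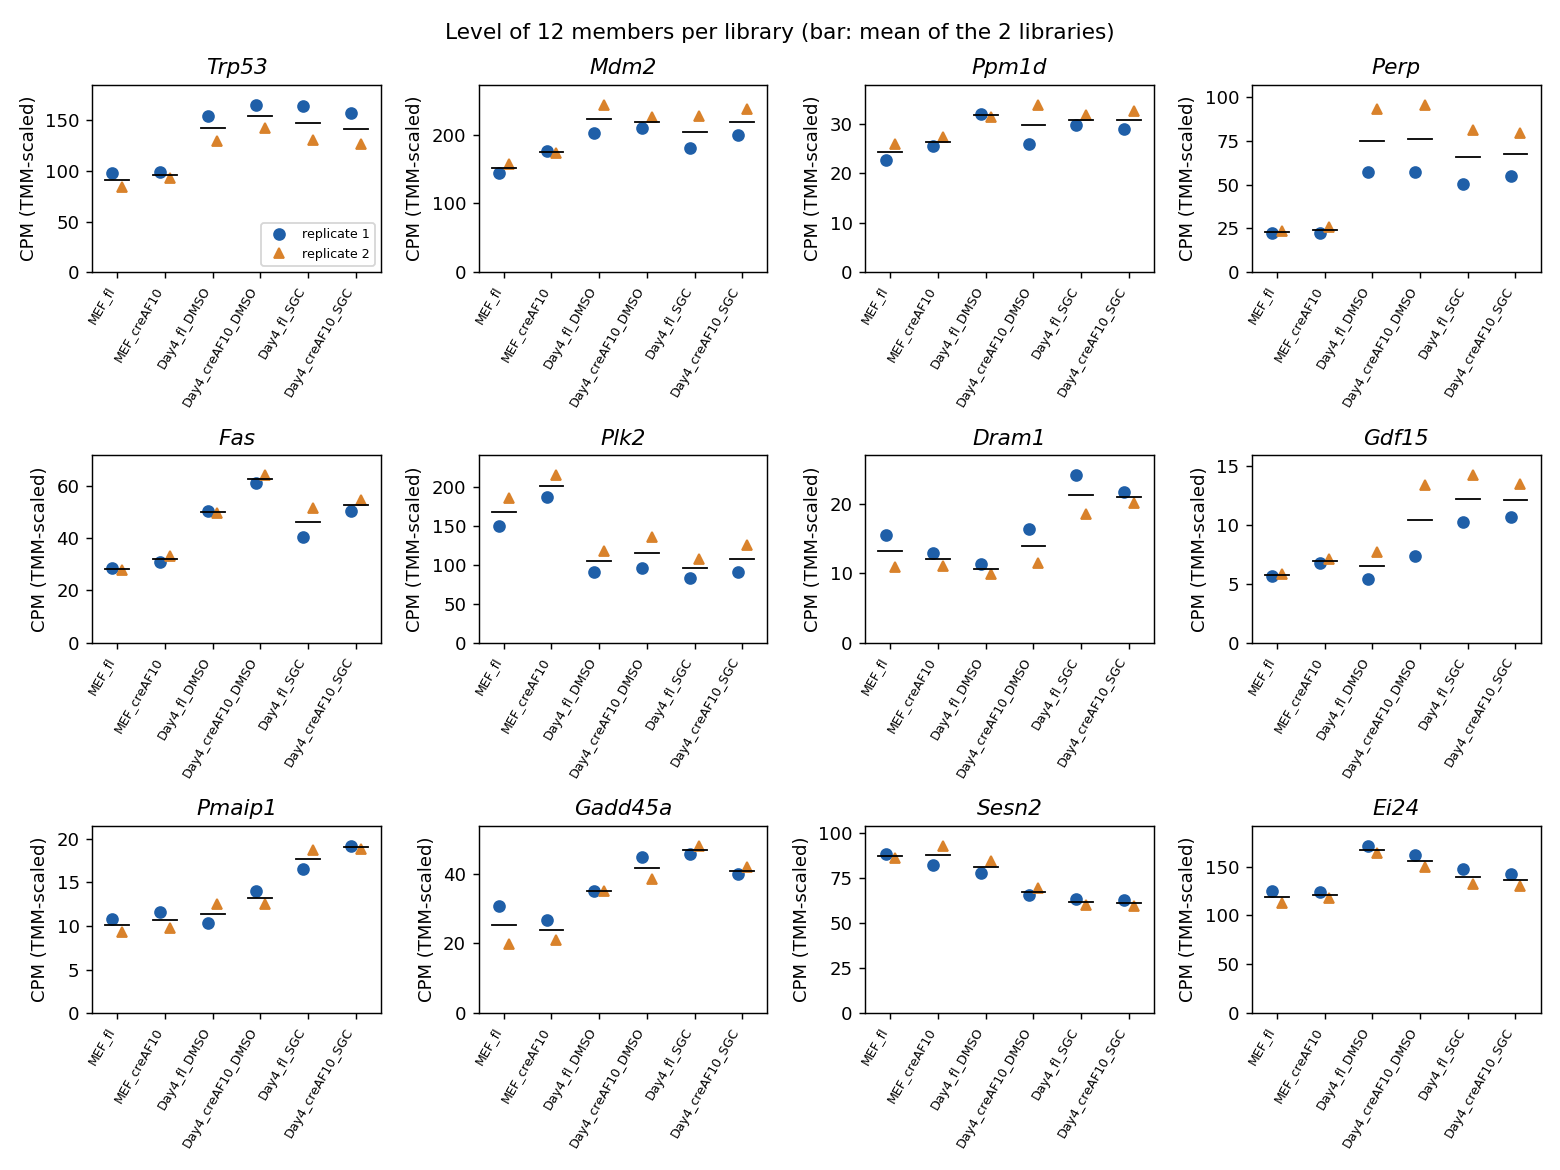
CPM of 12 of the p53 pathway genes in each of the 12 libraries, with 1 point per library, the marker shape giving the replicate number and the bar the group mean. Trp53, Mdm2 and Perp were higher in each Day4_fl_DMSO library than in each MEF_fl library and Plk2 was lower, while Dram1 was higher in each Day4_fl_SGC library than in each Day4_fl_DMSO library.

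Some members differed between the replicate numbers in the same direction in every group. Cell source and any other difference between the replicate numbers cannot be told apart here. Replicate 2 was higher than replicate 1 in 6 of 6 groups for 7 members (22.6%, against 9.34% of all genes kept), namely Ccng1, Plk2, Perp, Tnfrsf10b, Gdf15, Epha2 and Ercc5. The mean log2 difference between the replicates was 0.49 for Perp, 0.41 for Epha2, 0.37 for Plk2 and 0.36 for Gdf15. Replicate 1 was higher in 6 of 6 groups for 3 members (9.68%, against 8.89%), Trp53, Ei24 and Dram1, with mean differences of -0.24 for Trp53 and -0.31 for Dram1. That share is near the share of all genes.

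Trp53 itself, and its feedback regulators, were higher on day 4. In fl cells Trp53 was at 98.5 and 84.5 CPM in MEFs and at 154.6 and 130.1 on day 4 in DMSO. The groups did not overlap. On the log2 scale Trp53 rose by 0.64 ± 0.15 (SE, 2 libraries a group, edgeR quasi-likelihood test, adjusted p = 0.0065), a 1.56-fold difference, and without Day4_fl_DMSO replicate 1 the change was 0.51 with adjusted p = 0.054. In AF10-deleted cells it went from 99.2 and 92.8 CPM to 165.3 and 142.6, a rise of 0.68 ± 0.15 (edgeR adjusted p = 0.0043). Under SGC0946 on day 4 Trp53 was at 164.5 and 130.3 CPM in Day4_fl_SGC and at 157.4 and 126.3 in Day4_creAF10_SGC. Within each replicate number these lay close to the DMSO values, and no comparison on day 4 called Trp53 in either fit.

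Mdm2, the ubiquitin ligase that closes the feedback loop on p53, was at 143.6 and 157.9 CPM in MEF_fl and at 202.2 and 243.1 in Day4_fl_DMSO. The day 4 libraries lay above the MEF libraries, a rise of 0.56 ± 0.13 on the log2 scale (edgeR adjusted p = 0.0056). In AF10-deleted cells it was at 176.0 and 173.6 CPM in MEFs and 210.0 and 225.8 on day 4, again without overlap. That difference was 0.32 ± 0.13, with edgeR adjusted p = 0.065, against 0.00024 when paired, a call that held in 3 of 4 fits with a library left out. The difference between these stage effects, -0.24 ± 0.10 in the paired fit, did not pass (edgeR adjusted p = 0.285). Day4_fl_SGC had 180.0 and 226.4 CPM of Mdm2 and Day4_creAF10_SGC 199.8 and 237.1, and 2 of these 4 values lay below the lowest of the DMSO libraries. Ppm1d, the phosphatase WIP1 that damps p53 and the kinases above it, was at 22.7 and 25.9 CPM in MEF_fl and 32.1 and 31.4 in Day4_fl_DMSO. It rose by 0.39 ± 0.13 in fl cells (edgeR adjusted p = 0.0333), and in AF10-deleted cells, with 25.8 and 33.8 CPM on day 4 against 25.5 and 27.2 in MEFs, it was not called in either fit.

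Across all 31 members, more were higher than lower on day 4. In fl cells in DMSO, 12 members rose and 1 fell, while 25.7% of all genes tested rose and 26.3% fell. In the paired fit 15 rose and 4 fell, against 33.9% and 34.3% of all genes. In AF10-deleted cells 9 rose and 4 fell, against 27.5% in each direction, and 15 and 6 in the paired fit, against 35.6% and 34.8%. The share of members that rose in AF10-deleted cells in the first fit was near that of all genes. The median log2 change of the members was 0.19 for fl and 0.22 for AF10-deleted cells, beside 0.01 and 0.02 over all genes. Both libraries of day 4 lay above both of MEFs for 17 members in fl cells (39% of all genes) and below for 3 (37.9%), and with AF10 deleted for 13 (39.7%) and 6 (37.7%). Leaving out 1 library ended some calls of the first fit. In fl cells, without Day4_fl_DMSO replicate 1 the higher count was 6, with Trp53, Ppm1d, Bbc3, Bax, Eda2r and Xpc lost. Without MEF_fl replicate 2 Bbc3, Bax and Eda2r were lost, without MEF_fl replicate 1 Ppm1d and Bax, and without Day4_fl_DMSO replicate 2 Ppm1d, Bbc3, Bax and Eda2r. Eda2r was then at 0.28 without MEF_fl replicate 2. In AF10-deleted cells the lower calls of Plk2, Tnfrsf10b and Epha2 were each lost without MEF_creAF10 replicate 2 (-0.70, -0.35 and -0.41) and without Day4_creAF10_DMSO replicate 1 (-0.57, -0.41 and -0.54). Xpc was lost without either replicate 2 library, Bbc3 without Day4_creAF10_DMSO replicate 2 and Ei24 without Day4_creAF10_DMSO replicate 1. The paired p-values of this comparison do not measure how alike the change was in both cell sources. Scaling by total counts in place of TMM moved the median of all genes by 0.16 in fl and 0.15 in AF10-deleted cells and turned the sign of no called member.

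**Figure D2:**
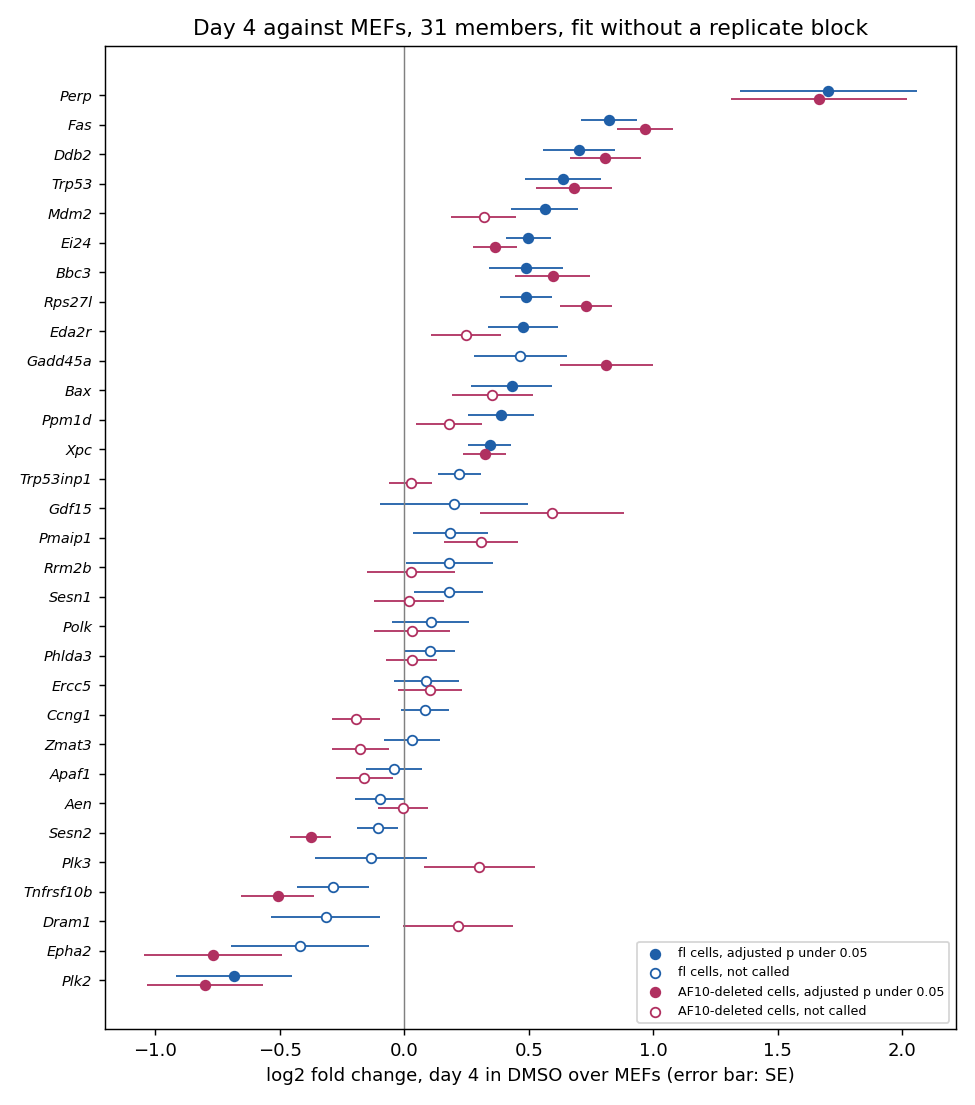
Log2 change from MEFs to day 4 in DMSO for each of the 31 members, in fl and in AF10-deleted cells, from the first fit, with bars of 1 SE and filled points for calls. Most points lie above 0, with Perp at 1.70 and 1.67 the farthest up and Plk2 at -0.69 and -0.80 the farthest down.

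Among the apoptosis genes, Perp had the widest difference between the stages. Perp encodes a membrane protein that is a p53 target in apoptosis and, in stratified epithelia, a desmosome component under p63. It was at 22.5 and 23.8 CPM in MEF_fl and 57.2 and 93.2 in Day4_fl_DMSO, and at 22.2 and 25.8 in MEF_creAF10 and 57.0 and 95.6 in Day4_creAF10_DMSO. All day 4 libraries lay above all MEF libraries, and replicate 2 lay well above replicate 1 on day 4. The rise was 1.70 ± 0.36 in fl cells (edgeR adjusted p = 0.0044), a 3.25-fold difference, and 1.67 ± 0.36 in AF10-deleted cells (adjusted p = 0.0045). In the same comparison Trp63, the gene of p63, rose by 1.92 ± 0.27 (edgeR adjusted p = 0.00036). The mean of Trp63 was 20.2 CPM in Day4_fl_DMSO and 45.8 in Day4_fl_SGC, while that of Perp was 75.2 and 65.6. A link between Trp63 and Perp was not tested.

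Bbc3, which encodes the BCL-2 antagonist PUMA, was at 30.4 and 28.1 CPM in MEF_fl and 41.8 and 40.3 in Day4_fl_DMSO, with no overlap. It rose by 0.49 ± 0.15 in fl cells (edgeR adjusted p = 0.0207) and by 0.60 ± 0.15 in AF10-deleted cells (adjusted p = 0.0077). Bax was at 102.5 and 116.5 CPM in MEF_fl and 142.6 and 152.7 in Day4_fl_DMSO, a rise of 0.43 ± 0.16 that only just passed (edgeR adjusted p = 0.0492). In AF10-deleted cells, with 109.4 and 148.2 CPM in MEFs and 145.2 and 184.1 on day 4, the Bax groups overlapped and the first fit did not call it. An annotated gene on the same strand, Gm45808, shares 192 of the 1576 exon bases of Bax.

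Ei24, an endoplasmic reticulum protein needed for autophagy, went from 124.7 and 112.3 CPM in MEF_fl to 171.0 and 163.7 on day 4, a rise of 0.50 ± 0.09 (edgeR adjusted p = 0.0012), and rose by 0.36 ± 0.09 in AF10-deleted cells. Rps27l rose by 0.49 ± 0.10 in fl and 0.73 ± 0.11 in AF10-deleted cells, from 118.1 and 130.7 CPM to 185.8 and 163.1 in the former. The other apoptosis genes had no call in the first fit. The range of their changes in fl cells ran from -0.32 for Dram1, a lysosomal membrane protein of autophagy, to 0.18 for Pmaip1. Apaf1, the scaffold of the apoptosome, Aen, an apoptosis-enhancing nuclease, and Phlda3 were at -0.04, -0.10 and 0.10. The paired fit called Dram1 lower in fl cells (edgeR adjusted p = 0.0385) and, in AF10-deleted cells, Apaf1 lower and Bax and Pmaip1 higher. With 1 library left out, the paired call held in 1 of 4 fits for Dram1 (-0.44 to -0.15), Apaf1 (-0.24 to -0.07) and Pmaip1 (0.16 to 0.46), and in 2 of 4 for Bax (0.20 to 0.51).

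Death receptors and secreted factors did not share 1 direction. Fas, the death receptor, was at 28.5 and 27.9 CPM in MEF_fl and 50.2 and 49.5 in Day4_fl_DMSO, and at 30.8 and 33.1 in MEF_creAF10 and 60.9 and 63.9 in Day4_creAF10_DMSO. Replicates lay close together and the stages far apart. Fas rose by 0.82 ± 0.11 in fl cells (edgeR adjusted p = 0.00026) and by 0.97 ± 0.11 in AF10-deleted cells (adjusted p = 8.4e-05). Eda2r, the receptor for ectodysplasin A2, was at 83.5 and 62.2 CPM in MEF_fl and 100.7 and 102.1 on day 4, and rose by 0.48 ± 0.14 (edgeR adjusted p = 0.0174). In AF10-deleted cells Eda2r rose by 0.25 ± 0.08 in the paired fit alone, a call that held in 2 of 4 fits with a library left out (0.15 to 0.34). Tnfrsf10b, the TRAIL receptor, went the other way, from 76.7 and 94.6 CPM in MEF_creAF10 to 55.7 and 64.7 on day 4. It fell by 0.51 ± 0.15 (edgeR adjusted p = 0.0145). In fl cells its difference was -0.29 ± 0.15 and passed in the paired fit alone (adjusted p = 0.0014). Epha2, a receptor tyrosine kinase, had 39.3 and 61.8 CPM in MEF_creAF10 and 24.5 and 34.9 on day 4, and fell by 0.77 ± 0.28 (edgeR adjusted p = 0.0422). In fl cells it fell by 0.41 ± 0.09 in the paired fit alone. The falls of Tnfrsf10b and Epha2 in AF10-deleted cells were not called when libraries were scaled by total counts. Gdf15, a secreted stress hormone of the TGF-beta family, had 5.63 and 5.83 CPM in MEF_fl and 5.40 and 7.70 on day 4, which overlap. In AF10-deleted cells it rose in the paired fit alone, by 0.56 ± 0.14, from 6.74 and 7.09 CPM to 7.40 and 13.4, and that call held in 3 of 4 fits with a library left out (0.31 to 0.74).

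Of the genes of arrest and metabolic restraint, Plk2 stood opposite to Mdm2. Plk2, a polo-like kinase with p53-dependent expression after damage, was at 150.3 and 185.9 CPM in MEF_fl and 90.5 and 118.2 in Day4_fl_DMSO, and at 187.2 and 214.7 in MEF_creAF10 and 95.4 and 135.1 in Day4_creAF10_DMSO. Day 4 lay below MEFs in each genotype. Plk2 fell by 0.69 ± 0.23 in fl cells (edgeR adjusted p = 0.0357) and fell by 0.80 ± 0.23 in AF10-deleted cells (adjusted p = 0.0179). The call in fl cells was lost with total counts (-0.53, adjusted p = 0.0984), without the filter on low counts (-0.68, adjusted p = 0.0535), and without MEF_fl replicate 2 or Day4_fl_DMSO replicate 1. In the paired fit, where the replicate difference is taken out within each stage, it was -0.69 ± 0.07 (adjusted p = 5.91e-10). That p-value does not measure how alike the fall was in the 2 replicates.

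Gadd45a, a stress sensor of growth arrest, had 30.8 and 19.8 CPM in MEF_fl and 35.0 and 34.9 in Day4_fl_DMSO. The MEF replicates were far apart, and its difference of 0.47 ± 0.19 had edgeR adjusted p = 0.0602, against 4.69e-05 when paired. Replicate 1 went from 30.8 to 35.0 CPM and replicate 2 from 19.8 to 34.9, an unlikeness that the paired p-value does not measure. In AF10-deleted cells it went from 26.6 and 20.9 CPM to 44.7 and 38.5 and rose by 0.81 ± 0.19 (adjusted p = 0.0049). The sestrins Sesn1 and Sesn2 restrain mTORC1 under stress. Sesn2 was at 82.1 and 92.6 CPM in MEF_creAF10 and 65.2 and 69.4 on day 4, and fell by 0.38 ± 0.08 (edgeR adjusted p = 0.0036), a call that was lost with total counts. Its fl values, 88.3 and 86.1 CPM in MEFs and 77.7 and 84.1 on day 4, gave -0.11 ± 0.08 with no call. Ccng1, the RNA-binding protein gene Zmat3, Trp53inp1, a promoter of autophagy and of p53 phosphorylation, and Plk3 had no call in the first fit at either genotype. The paired fit called Sesn1 and Trp53inp1 higher in fl cells, and Plk3 higher and Ccng1 lower in AF10-deleted cells. With a library left out, Sesn1 was called in 0 of 4 fits, and Trp53inp1 (0.14 to 0.32), Plk3 (0.14 to 0.48) and Ccng1 (-0.25 to -0.14) in 1 of 4 each.

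Of the repair genes, both that recognise damaged DNA rose. Ddb2, a sensor of ultraviolet lesions, was at 7.29 and 9.53 CPM in MEF_fl and 13.2 and 14.1 in Day4_fl_DMSO, a rise of 0.70 ± 0.14 (edgeR adjusted p = 0.0026), and rose by 0.81 ± 0.14 in AF10-deleted cells. Its exons share 652 of 2736 bases with Acp2 on the other strand, and strand use in counting was not stated. Xpc, which recognises distorted DNA in nucleotide excision repair, went from 24.96 and 24.45 CPM to 31.8 and 30.9 and rose by 0.34 ± 0.09 in fl and 0.32 ± 0.09 in AF10-deleted cells. Ercc5, the excision nuclease XPG, Polk, a translesion polymerase, and Rrm2b had changes of 0.09, 0.10 and 0.18 in fl cells and no call in either fit.

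SGC0946 was compared with DMSO on day 4 to ask what blocking DOT1L does during reprogramming. In fl cells the first fit called 0 members in either direction, with 0.883% of all genes higher and 0.23% lower. DESeq2 called Dram1 higher and Sesn2 lower, beside 221 genes higher and 85 lower among all genes kept. The paired fit called 6 members higher and 3 lower, against 10.6% and 7.1% of all genes. The libraries did not overlap for 7 members higher (23.4% of all genes) and 9 lower (24.2%). The median change of the members was -0.11, against -0.01 over all genes.

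Dram1 had the largest difference. It was at 11.3 and 9.90 CPM in Day4_fl_DMSO and 24.1 and 18.5 in Day4_fl_SGC, so that each treated library lay above both controls. The paired fit gave a rise of 1.00 ± 0.12 (edgeR adjusted p = 9.4e-07), and the first fit 1.01 ± 0.22 with adjusted p = 0.0679. In AF10-deleted cells the values were 16.4 and 11.5 CPM in DMSO and 21.7 and 20.1 in SGC0946, a rise of 0.60 ± 0.12 in the paired fit (adjusted p = 0.0015). That call was lost in 2 of the 4 fits that left out 1 of those libraries.

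Pmaip1 showed a like pattern at a low level. It was at 10.3 and 12.5 CPM in Day4_fl_DMSO and 16.5 and 18.8 in Day4_fl_SGC, and at 14.0 and 12.5 in Day4_creAF10_DMSO and 19.2 and 18.9 in Day4_creAF10_SGC. All 4 SGC0946 libraries lay above all 4 DMSO libraries. In the paired fit Pmaip1 rose by 0.62 ± 0.12 in fl cells (edgeR adjusted p = 0.00048) and by 0.53 ± 0.12 in AF10-deleted cells (adjusted p = 0.0053), while the first fit gave 0.0921 and 0.458. The second of these calls was also lost in 2 of 4 fits with a library left out.

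Gdf15 and Gadd45a were called with the inhibitor in fl cells by the paired fit and not by the first, and in AF10-deleted cells by neither. Gdf15 was at 5.40 and 7.70 CPM in Day4_fl_DMSO and 10.3 and 14.2 in Day4_fl_SGC, a rise of 0.91 ± 0.14 (edgeR adjusted p = 3.2e-05). In AF10-deleted cells it was at 7.40 and 13.4 CPM in DMSO and 10.7 and 13.5 in SGC0946, which gave 0.24 ± 0.13. Gadd45a was at 35.0 and 34.9 CPM in Day4_fl_DMSO and 45.6 and 47.9 in Day4_fl_SGC, a rise of 0.42 ± 0.09 (edgeR adjusted p = 0.0012). In AF10-deleted cells, with 44.7 and 38.5 CPM in DMSO and 39.9 and 41.8 in SGC0946, the groups overlapped. The interaction of deletion and inhibitor, the test of whether these effects differ, was -0.67 ± 0.20 for Gdf15 (paired fit, edgeR adjusted p = 0.142) and -0.44 ± 0.13 for Gadd45a (adjusted p = 0.13), so neither difference passed.

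Sesn2 was lower with the inhibitor in fl cells, at 63.4 and 59.9 CPM against 77.7 and 84.1 in DMSO. The paired fit gave -0.39 ± 0.08 (edgeR adjusted p = 0.00045) and the first fit an adjusted p of 0.0621. Dram1, Gdf15, Pmaip1, Gadd45a and Sesn2 were called in each of the 4 paired fits that left out 1 of these libraries. Ei24, at 147.0 and 131.7 CPM against 171.0 and 163.7, fell by 0.27 ± 0.07 in the paired fit, and Sesn1, at 48.0 and 53.5 against 61.2 and 64.2, fell by 0.31 ± 0.08. Plk3 and Rps27l rose by 0.45 ± 0.14 and 0.24 ± 0.07 in that fit. These last 4 calls held in 2 of 4 fits with a library left out for Ei24, 1 for Sesn1 and Rps27l, and 0 for Plk3. Plk3 shares 84 of its 2531 exon bases with Tctex1d4 on the other strand. Mdm2 (-0.13 ± 0.07), Plk2 (-0.12 ± 0.07) and Perp (-0.20 ± 0.08) were not called in the paired fit.

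**Figure D3:**
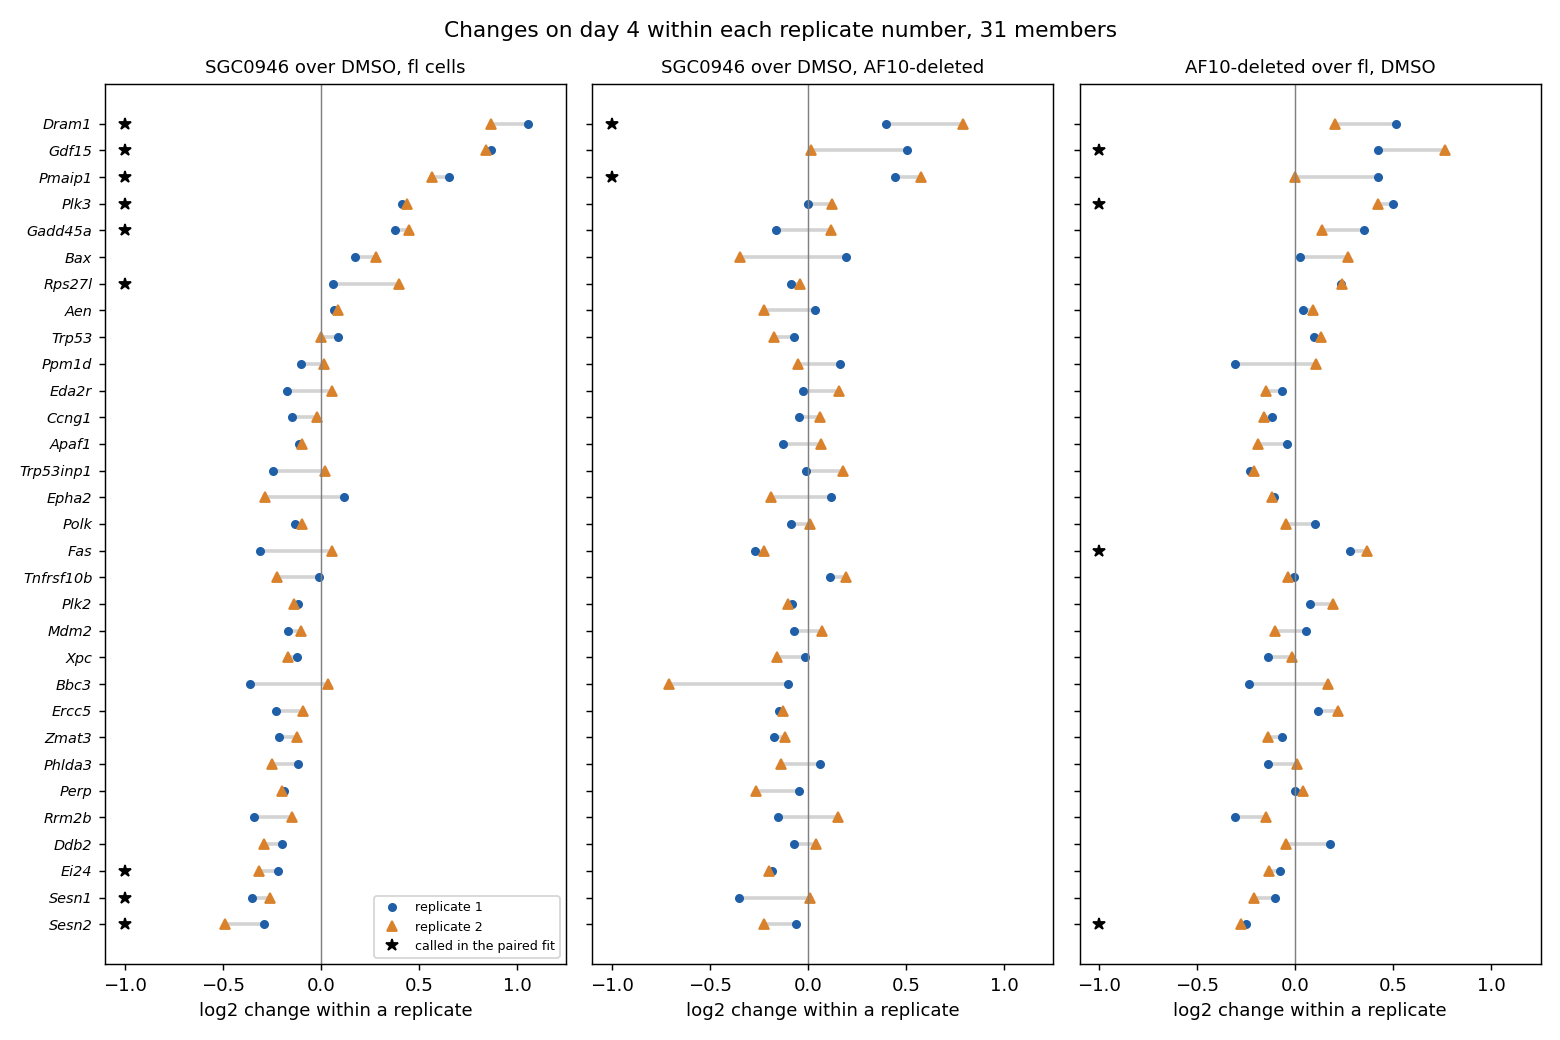
Log2 change on day 4 for each member with SGC0946 in fl cells, SGC0946 in AF10-deleted cells and AF10 deletion in DMSO, within each replicate number, as the difference of log2(CPM + 0.5), with circles for replicate 1, triangles for replicate 2 and a star for calls of the paired fit. With SGC0946 in fl cells the points of Dram1 (1.06 and 0.87), Gdf15 (0.87 and 0.84) and Pmaip1 (0.65 and 0.57) lie farthest to the right, and both points of Sesn2 (-0.29 and -0.49) lie to the left of 0.

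In AF10-deleted cells SGC0946 gave 0 calls among the members in the first fit, where 0.00718% of all genes rose and 0% fell, and 2 higher and 0 lower in the paired fit, against 5.28% and 2.47%. The calls were those of Dram1 and Pmaip1 above. The libraries did not overlap for 2 members higher (19.4% of all genes) and 6 lower (19.1%). The interaction with deletion called 0 members in either fit, with 0% of all genes called in the first, while the paired fit called 0.0718% of all genes higher and 0.323% lower. At an unadjusted p under 0.05 it had 7 members in the paired fit and 0 in the first. Over all 13936 genes there were 1445 and 303 at that threshold.

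The epithelial marker sum moved with these treatments, from 23.1 to 34.3 CPM in Day4_fl_DMSO to 39.8 to 54.7 in Day4_creAF10_DMSO and 73.3 to 88.8 in the SGC0946 groups. The sum of the 4 reprogramming factors was 782.2 and 768.4 CPM in Day4_fl_DMSO and 671.5 and 644.9 in Day4_fl_SGC. It was 671.5 and 642.1 CPM in Day4_creAF10_DMSO and 583.1 and 579.4 in Day4_creAF10_SGC. The part of either in the members' changes was not tested.

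AF10 deletion on day 4 in DMSO gave 0 calls in the first fit for the members and for all genes (0% in each direction). The paired fit called 3 members higher and 1 lower, against 3.37% of all genes in each direction. Groups did not overlap for 6 members higher (20.1% of all genes) and 10 lower (20.3%). Gdf15 rose by 0.66 ± 0.14 (edgeR adjusted p = 0.0055), from 5.40 and 7.70 to 7.40 and 13.4 CPM, which overlap between groups while each replicate number went up. Fas rose by 0.33 ± 0.08 (adjusted p = 0.0171), from 50.2 and 49.5 to 60.9 and 63.9 CPM without overlap. Plk3 rose by 0.49 ± 0.14 (adjusted p = 0.0304), from 6.20 and 7.75 to 8.98 and 10.6 CPM. Sesn2 fell by 0.27 ± 0.08 (adjusted p = 0.0309), from 77.7 and 84.1 to 65.2 and 69.4 CPM. None of these 4 calls held each time a library was left out, with Gdf15 called in 2 of 4 such fits, Fas in 1, and Plk3 and Sesn2 in 0. Deletion and inhibitor are compared with the same Day4_fl_DMSO libraries, so a low or high control moves both. Side by side, their paired changes were 0.66 and 0.91 for Gdf15, 0.49 and 0.45 for Plk3, -0.27 and -0.39 for Sesn2, and 0.33 and -0.12 for Fas.

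In MEFs, before reprogramming, deletion gave 0 calls in the first fit (0% of all genes in each direction). The paired fit called Plk2 alone among the members, against 0.122% of all genes higher and 0.84% lower, with a rise of 0.26 ± 0.07 and edgeR adjusted p = 0.0495. It was lost in each of the 4 fits with a library left out. Groups did not overlap for 5 members higher (9.77% of all genes) and 3 lower (10.8%). On day 4 under SGC0946 deletion gave 0 calls in either fit, with 0% of all genes called in the first fit and 0.0718% higher and 0.1% lower in the paired fit. At an unadjusted p under 0.05 there were 7 members in the paired fit and 0 in the other, against 1081 and 251 of all 13936 genes. The log2 changes over the members ran from -0.29 to 0.30. Groups did not overlap for 5 members higher (14.7% of all genes) and 1 lower (14%). The interaction of deletion with stage called 0 members in either fit, against 0% of all genes in the first and 0.933% higher and 0.222% lower in the paired fit. At an unadjusted p under 0.05 it had 10 members in the paired fit and 1 in the first, against 1835 and 507 of all 13936 genes.

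**Figure D4:**
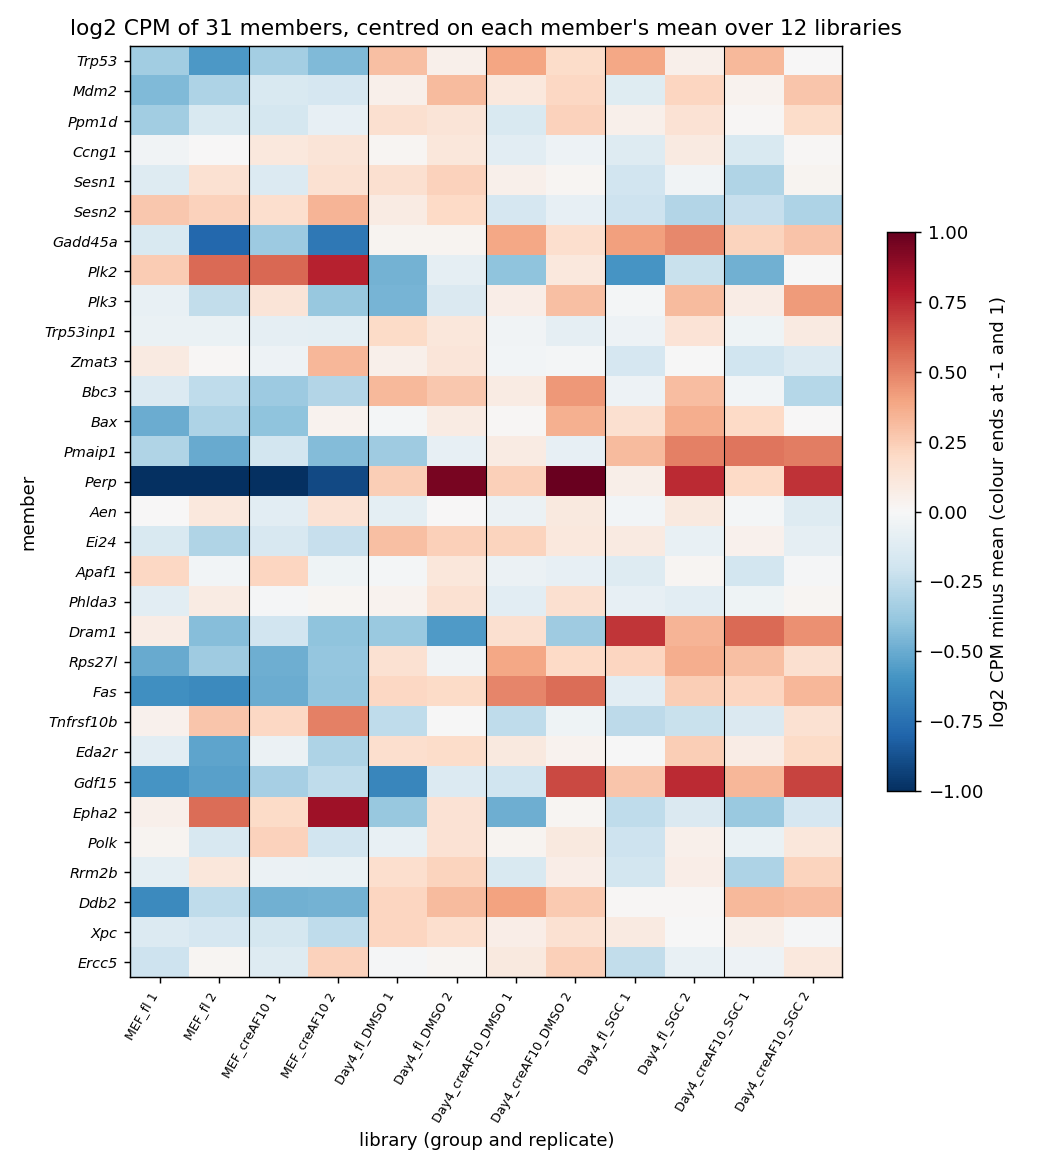
Log2 CPM of the 31 members in each of the 12 libraries, each gene centred on its own mean over the libraries, with colours that end at -1 and 1. The day 4 columns are higher than the MEF columns for Trp53, Mdm2, Perp and Fas and lower for Plk2, and the SGC0946 columns are higher than the DMSO columns for Dram1 and Pmaip1.

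Cells with both deletion and SGC0946 were set against Day4_fl_DMSO. Pmaip1 rose by 0.73 ± 0.15 (edgeR adjusted p = 0.0405) and Sesn2 fell by 0.41 ± 0.08 (adjusted p = 0.0407) in the first fit, the only members called, against 1.28% of all genes higher and 0.538% lower. Each call was lost when any 1 of the 4 libraries was left out, and that of Sesn2 with total counts (adjusted p = 0.0638). The paired fit called 4 members higher and 5 lower, against 12.3% and 9.25%, and groups did not overlap for 7 members higher and 9 lower (25.5% of all genes each). Dram1, Gdf15, Pmaip1 and Plk3 were the higher and Sesn2, Ei24, Sesn1, Bbc3 and Zmat3 the lower. With a library left out, Zmat3 was called in 0 of 4 paired fits, Bbc3 (-0.69 to -0.22), Sesn1 (-0.46 to -0.21) and Plk3 in 2 of 4, and the other 5 in each. Bbc3 was at 41.8 and 40.3 CPM in Day4_fl_DMSO and 32.8 and 27.5 in Day4_creAF10_SGC.

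Of 22 further regulators of p53, 7 rose and 4 fell from MEFs to day 4 in fl cells, and 12 and 4 in the paired fit, against the 25.7% and 26.3% of all genes (33.9% and 34.3% paired) given above. Mdm4, the MDM2 partner that blocks p53 activity, went from 73.7 ± 3.15 CPM (SD, n = 2) to 148.4 ± 5.97, a rise of 1.01 ± 0.08 (edgeR adjusted p = 7.46e-06). Cdkn2a, the locus of the MDM2 inhibitor ARF and of p16, rose by 0.92 ± 0.16, and Chek1, a checkpoint kinase of replication stress, by 1.28 ± 0.17. Daxx, a histone chaperone that binds MDM2, and Pml, the scaffold of nuclear bodies, had log2 changes of -0.69 ± 0.09 and -0.51 ± 0.08 and both fell. Of 23 further p53 targets 4 rose and 8 fell, and 5 and 11 in the paired fit. The phosphatase gene Ptprv (-1.63 ± 0.15), the autophagy gene Trp53inp2 (-1.46 ± 0.07) and the metalloreductase gene Steap3 (-1.29 ± 0.16) were among those that fell. Ckap2, a spindle protein, rose by 1.61 ± 0.10. Cdkn1a, the cyclin-dependent kinase inhibitor p21 and the classical p53 target, was at 372.7 ± 30.5 CPM in MEF_fl and 399.0 ± 20.2 in Day4_fl_DMSO, a difference of 0.10 ± 0.09 that was not called (edgeR adjusted p = 0.408). In AF10-deleted cells the counts were 9 higher and 5 lower regulators and 4 higher and 10 lower further targets, and in the paired fit 10 and 6 and then 6 and 11. The shares of all genes there were 27.5% in each direction, and 35.6% and 34.8% paired.

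With SGC0946 in fl cells the first fit called 0 of these regulators and further targets, and the paired fit called 1 regulator higher and 5 lower, and 7 further targets higher and 2 lower, against 10.6% and 7.1% of all genes. Trp63 rose by 1.18 ± 0.10, Bid, a link from death receptors to mitochondria, by 0.38 ± 0.09 and Btg2, an antiproliferative gene, by 0.39 ± 0.08, while Atm, the kinase that signals DNA breaks, fell by 0.37 ± 0.08. Cdkn1a was at 374.5 ± 6.03 CPM under SGC0946, a difference of -0.09 ± 0.07 in the paired fit with edgeR adjusted p = 0.42. With AF10 deletion in DMSO the paired fit called 1 regulator higher (Trp63, 0.48 ± 0.10) and 1 lower (Hipk2, a p53 kinase, -0.64 ± 0.13), and 2 further targets higher (Btg2 and Ptprv) and 1 lower (Steap3), against 3.37% of all genes in each direction.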

How the data were processed

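RNA-seq of 12 mouse libraries was analysed. The authors deposited RSEM tables per library with expected counts per gene and TPM. RSEM and Bowtie are named in the submitters' processing notes without versions, and the counts are on mm9, per the submitters' processing notes; filters on reads are not given in the sources used here. Depth sets counting error only. The p-values rest on the spread between the 2 libraries of a group, estimated over all groups and shared in part across genes. In the first fit that spread holds the difference between the replicate numbers, and the paired fit takes out the part common to a stage. The labels do not say how separate the cultures were. Expected counts were rounded. With edgeR 4.0.16 in R 4.3.3, genes were kept by filterByExpr over the 6 groups (13936 of 20325), TMM-scaled, fitted by robust quasi-likelihood with a group term over all libraries, and adjusted by Benjamini-Hochberg over all genes kept (threshold 0.05). DESeq2 1.42.0 was an alternative. The SE is that of the log2 fold change. Log2 changes within a replicate used log2(CPM + 0.5). The fits were tested on simulated counts with 200 changed genes.

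Same-numbered libraries deviated together (correlation 0.286 to 0.737 over 15 pairs of groups, 0.413 to 0.737 within a stage). Y-linked genes summed to 245.9 to 290.2 CPM in every replicate 1 and 0.368 to 2.38 in every replicate 2. The numbers therefore mark 2 cell sources. The paired fit has a replicate block per stage; its spread is mostly shared across genes (22.4 prior against 4 residual degrees of freedom). Its biological coefficient of variation was 0.0549, against 0.148 in the first fit.

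The members, lists and comparisons were chosen with earlier results of these data known. Members called in either fit are named with values, at most 10 in full per comparison, and the others by range or count. Of the further targets, Tnfrsf10c had no row in the tables used here. Promoter windows of GRCm38.p6 come from RefSeq, and exon overlaps from GENCODE on GRCm38; both are separate from the mm9 counts. In 10 files 25 gene names had turned into dates; none is a member.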

Additional observations from a re-analysis of the deposited data

Results flagged for a closer look

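For 3 of the 31 members the change with AF10 deletion had opposite signs in MEFs and on day 4 in SGC0946, each the same in both replicates. They were picked by sign alone, and the share of all genes with this pattern was not counted. The log2 changes in MEFs and on day 4 in SGC0946 were small, at 0.07 and -0.05 for Trp53, 0.14 and -0.05 for Ccng1 and 0.23 and -0.07 for Epha2. The difference between these effects (day 4 in SGC0946 minus MEFs, log2) was -0.123 for Trp53, -0.188 for Ccng1 and -0.299 for Epha2. This difference was not tested, and none of these single effects was called in either fit.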

How the results depend on the processing

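The counts of members called moved by more than 1.5 times in several settings. For day 4 against MEFs in fl cells the higher count (12) was 11 to 15 with DESeq2, no filter on low counts, total counts in place of TMM, a replicate block or a replicate block per stage, and 6 to 11 with a library left out. The lower count (1) was 0 with no filter and with total counts, 3 with the replicate block, 4 with the block per stage and 0 to 1 with a library left out. In AF10-deleted cells the higher count (9) was 15 with the block per stage and 7 to 10 with a library left out, and the lower count (4) was 1 with total counts and 1 to 5 with a library left out. For SGC0946 in fl cells (0 and 0) DESeq2 gave 1 higher and 1 lower, the replicate block 3 and 2 and the block per stage 6 and 3. For deletion with SGC0946 against neither (1 and 1) the higher count was 2 with DESeq2, no filter and total counts, 3 with the block and 4 with the block per stage, and the lower count was 2 and 5 with the blocks and 0 with total counts. Both were 0 when any 1 of its libraries was left out. The block per stage also gave 2 higher for SGC0946 in AF10-deleted cells, 3 higher and 1 lower for deletion in DMSO and 1 higher for deletion in MEFs. With the block per stage and a library left out, a check chosen after seeing the data, the higher and lower counts were 11 to 14 and 3 to 4 (day 4 in fl), 11 to 13 and 4 to 6 (day 4 in AF10-deleted), 4 to 5 and 1 to 2 (SGC0946 in fl), 0 to 2 and 0 to 1 (SGC0946 in AF10-deleted), 3 to 4 and 2 to 4 (both) and 0 to 2 and 0 (deletion in DMSO), with 0 to 1 lower for the interaction of deletion and SGC0946. The cause of these shifts was not tested, beyond that leaving out a library removes samples. Counts of 2 libraries a group limit the precision of each call.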
